A study of Mus musculus with 4 samples.

Results

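The genes described here are 10 transcripts of monocyte alarmins and of proteins that phagocytes share with neutrophil granules or surfaces: S100A8, S100A9, S100A12, S100P, FCN1, VCAN, HP, PADI4, VNN2 and MCEMP1. They were chosen by symbol, with earlier results of these data known. Each symbol named 1 gene in both feature lists, and the lists hold 36601 genes in all. They were measured in human CD45+ cells from tumors of MDA-MB-231, a human triple-negative breast carcinoma line, grown in the mammary fat pad of 14 MISTRG mice, which carry the human genes for M-CSF, GM-CSF and IL-3. All mice had been irradiated as pups and engrafted with human fetal liver CD34+ cells, so the human leukocytes arose in a host that keeps mouse leukocytes, and the labels therefore give mouse as the organism although the counted transcripts are human. The labels give neither the ages nor the number of donors.

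Of the 14 mice, 7 were untreated and 7 received maraviroc at 300 mg/l in the drinking water for 10 days from day 21 after tumor injection, and tumors were taken on day 31. Mononuclear cells were separated on a density gradient, tagged per mouse with hashtag antibodies, sorted for human CD45 and loaded in 2 droplet reactions. Reaction 1 held 4 untreated and 3 maraviroc mice, and reaction 2 held 3 untreated and 4 maraviroc mice. The comparison of treatments asks whether maraviroc alters tumor-infiltrating human myeloid cells.

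S100A8 and S100A9 are small calcium-binding proteins that pair as calprotectin, and with S100A12 they are stored in the cytosol of neutrophils and monocytes and act, once released, as alarmins on receptors such as TLR4 and RAGE. Classical monocytes carry these transcripts together with the secreted lectin FCN1 and the matrix proteoglycan VCAN, and lose most of them as they become tissue macrophages, which acquire the complement genes C1QA, C1QB and C1QC. HP encodes haptoglobin, PADI4 an enzyme that citrullinates histones, VNN2 a GPI-anchored pantetheinase, S100P another calcium-binding S100 protein, and MCEMP1 a membrane protein of myeloid cells.

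The 2 reactions held 133089612 and 175447534 unique molecular identifiers (UMIs), with medians of 2764 and 10205 UMIs per barcode. After the limits on genes and mitochondrial reads and removal of hashtag doublets and negatives, 11917 cells of reaction 1 and 7954 of reaction 2 remained, at medians of 3020 and 9768 UMIs. Reaction 1 lost 10174 barcodes as hashtag doublets against 1961 in reaction 2, and doublets within 1 mouse are not seen by hashtags. The reactions shared 136 barcodes, 33 of them among the cells kept. Values are given per reaction or with reaction in the fit.

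Cells were gated on UMIs of marker genes, none of them a member. Monocytes held myeloid markers, at least 2 UMIs over CD300E, CSF3R, LILRA5, CLEC12A, MNDA, AQP9 and THBS1, and under 3 C1Q UMIs per 10000. Type 2 dendritic cells held at least 2 UMIs over CD1C, FCER1A and CLEC10A at the same C1Q limit and were taken out before monocytes were gated, so they may also hold monocyte markers. Macrophages held at least 12 C1Q UMIs per 10000 and at least 3 C1Q UMIs. They were split into states by SLC2A1, which encodes GLUT1, with ADM and HILPDA, and by the metallothioneins MT1G, MT1H and MT1M. Further states rested on the chemokines CXCL10, CXCL9 and CXCL11, on LYVE1 or FOLR2, and on IL1A or CCL20. The IL1A or CCL20 state held 66 cells, which are part of the pooled macrophages. Remaining cells with 3 or more C1Q UMIs per 10000 are called low-C1Q cells. They include shallow cells at 12 or more per 10000 that held under 3 C1Q UMIs. Of 958 low-C1Q cells in reaction 1, 803 lay between 3 and 12 per 10000, and in reaction 2, 285 of 287. There were 803 monocytes in reaction 1 and 1356 in reaction 2, among 5994 and 4243 myeloid cells.

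Members were concentrated in monocytes. Monocytes made up 10.9% of the cells kept, and they held 74.4% of all S100A12 UMIs, 67.9% of S100P, 67.2% of S100A8, 67.1% of HP, 63.6% of PADI4, 60.9% of MCEMP1, 56.4% of FCN1, 54.9% of VCAN and 51.8% of S100A9. VNN2 was the exception, with 37.5% of its 440 UMIs in monocytes and 58.0% in myeloid cells of any kind. Summed over the 10 genes, members made up 1.69% of monocyte UMIs in reaction 1 and 1.63% in reaction 2, against 0.328% and 0.265% in macrophages. For 9 of the 10 genes, then, over 50% of UMIs lay in monocytes. Monocytes were also deeper than the cells kept, with medians of 7379 and 11355 UMIs in reactions 1 and 2 against 3020 and 9768. Their share of cells is therefore not their share of UMIs, and the share over all genes is not given.

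S100A9 and S100A8, the calprotectin pair, were the best sampled members. The S100A9 level in monocytes ran over the 14 mice from 5344 to 9793 UMIs per 1000000 UMIs of the gate (CPM), with a median of 7408, and that of S100A8 ran from 2735 to 5893 with a median of 3728. In macrophages S100A9 ran from 1012 to 2682 CPM and S100A8 from 111 to 651 CPM, so that the ranges of monocytes and macrophages did not overlap for either gene. S100A12 ran from 130 to 335 CPM in monocytes and from 1.76 to 29.3 CPM in macrophages, again without overlap.

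Versican and ficolin-1 followed the same order. VCAN ran from 2589 to 5536 CPM in monocytes and from 378 to 1112 CPM in macrophages, and FCN1 from 541 to 878 CPM and from 30.6 to 231 CPM. MCEMP1 ran from 71.6 to 179 CPM in monocytes and from 6.87 to 22.9 CPM in macrophages. In each of the 14 mice S100A8, S100A9, S100A12, S100P, FCN1, VCAN, PADI4, VNN2 and MCEMP1 were higher in monocytes than in macrophages, and HP was higher in 12.

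The remaining members were low even in monocytes. PADI4 had a median of 24.9 CPM over mice, from 6.08 to 42.2, S100P a median of 14.9 CPM, from 4.05 to 34.1, and HP a median of 6.36 CPM, from 0 to 24.3. These genes rest on 551, 366 and 157 UMIs in all monocytes, so that a value in 1 mouse is a handful of molecules. Reads of HP can be shared with its near-identical neighbour HPR, and VCAN overlaps the antisense gene VCAN-AS1, so these 2 levels are uncertain to that extent.

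**Figure D1:**
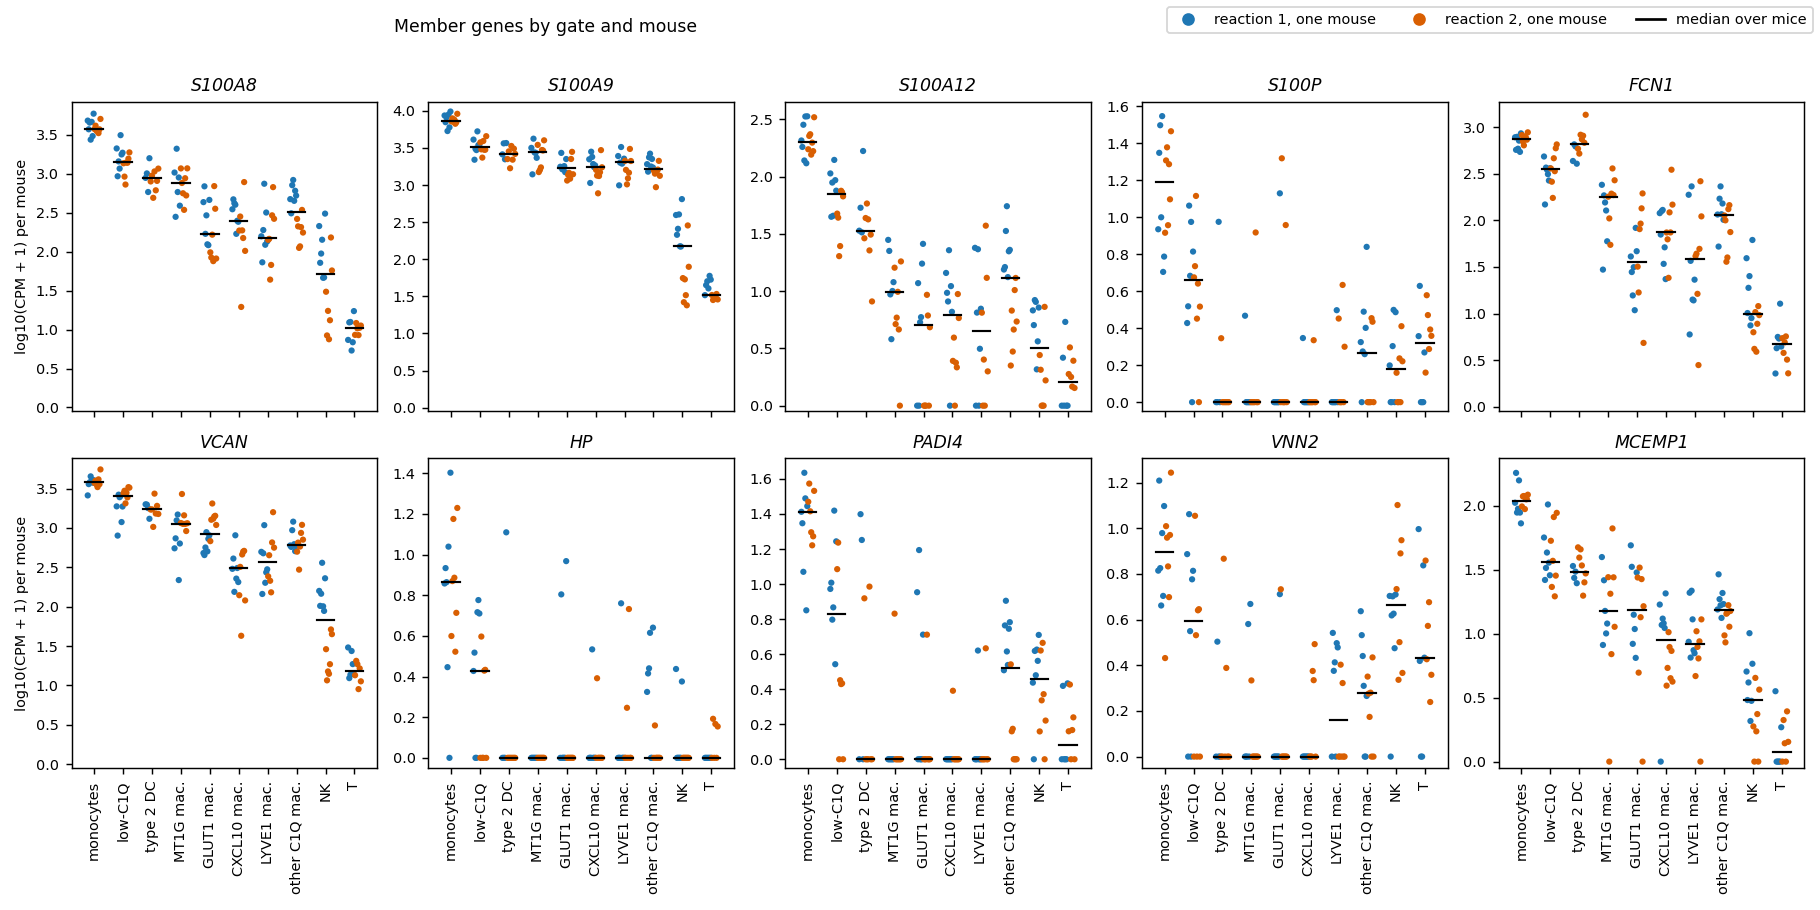
Each panel plots 1 gene as log10(CPM + 1) on the vertical axis against the gate on the horizontal axis, with 1 point per mouse with at least 10 cells, coloured by reaction, and a line at the median. Monocytes have the highest median in all 10 panels, from 7408 CPM for S100A9 to 6.36 CPM for HP, and for VNN2 the points of monocytes overlap those of NK and T cells.

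Tested within mice by edgeR's quasi-likelihood test on UMIs summed per mouse and gate, all 8 members that passed the filter on low counts were higher in monocytes than in macrophages, with HP and VNN2 under the filter. Macrophages entered this test as the unweighted mean of their states, without the IL1A or CCL20 state, and not as the pooled cells above. The background was large, since 27.3% of all 9713 genes tested were also higher. PADI4 and S100P had 51 and 36 UMIs in all macrophages, against 551 and 366 in monocytes. They may have passed the filter through monocytes alone, so their calls are not separate support. The log2 difference was 4.69 for S100A12 (SE 0.18, adjusted p = 1.46e-47), 4.61 for PADI4 (SE 0.28, adjusted p = 1.64e-30), 3.94 for S100P (SE 0.28, adjusted p = 6.05e-25) and 3.62 for S100A8 (SE 0.17, adjusted p = 2.53e-40). FCN1 differed by 3.12 (SE 0.16), MCEMP1 by 3.00 (SE 0.12) and VCAN by 2.64 (SE 0.13). S100A9 had the smallest difference of the 8, at 1.96 (SE 0.08, adjusted p = 2.77e-42). The median over the 8 members, PADI4 and S100P included, was 3.37, against -0.06 over all genes. The members were chosen with earlier results of these data known, so these medians are a description and no support for the list. In each reaction by itself 8 of 8 were called. The share of all genes called there is not given, and this count adds no support for PADI4 and S100P.

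Low-C1Q cells lay between monocytes and macrophages for the better sampled members. Their S100A8 level ran from 725 to 3122 CPM (median 1415) and their VCAN level from 798 to 3295 CPM (median 2509), and in 14 of 14 mice both genes were below monocytes and above macrophages. The same held for S100A9, S100A12, FCN1 and MCEMP1, but not in every mouse for S100P, HP, PADI4 and VNN2. VNN2 in low-C1Q cells was above monocytes in 4 of 14 mice and above macrophages in 9. In reaction 1 these cells had a median of 2285 UMIs against 7379 in monocytes, and the part of depth in their place was not tested.

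Across mice the order of the S100A8 medians was monocytes, low-C1Q cells, type 2 dendritic cells (883 CPM), MT1G macrophages (760 CPM), cycling myeloid cells (416 CPM), other C1Q macrophages (326 CPM), CXCL10 macrophages (244 CPM), GLUT1 macrophages (166 CPM) and LYVE1 or FOLR2 macrophages (151 CPM). Every neighbour in this order overlapped the next in its range over mice. In NK cells, which should lack S100A8, it ran over 14 mice from 6.51 to 307 CPM. The medians of CXCL10, GLUT1 and LYVE1 or FOLR2 macrophages lie within that range. The part of free RNA from other cells in them was not tested. For S100A9 the range of monocytes did not overlap that of low-C1Q cells, and below that LYVE1 or FOLR2 macrophages (median 2024 CPM) stood above other C1Q macrophages (median 1668 CPM), with overlapping ranges.

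Type 2 dendritic cells, which present antigen to CD4 T cells, had median S100A8 and S100A9 levels between those of monocytes and macrophages. Over the 11 mice with at least 10 such cells FCN1 ran from 404 to 1354 CPM, with a median of 652, and overlapped the monocyte range. S100A8 ran from 489 to 1579 CPM and S100A9 from 1684 to 3681 CPM, both below every monocyte value. Of the 8 members tested, 7 were higher in monocytes, where 11.1% of all genes were. The log2 difference was 3.58 for S100P (SE 0.56, adjusted p = 1.89e-07), 2.53 for S100A12 (SE 0.27), 2.19 for S100A8 (SE 0.29), 1.89 for PADI4 (SE 0.38), 1.68 for MCEMP1 (SE 0.20), 1.5 for S100A9 (SE 0.14) and 1.27 for VCAN (SE 0.22). FCN1 differed by 0.26 (SE 0.24, adjusted p = 0.498) and was higher in monocytes in 7 of 11 mice. FCN1 was called higher in monocytes with all genes tested (0.41, adjusted p = 0.000604) and with thinned gates (1.38, adjusted p = 0.0368), which left 3 mice with such dendritic cells, and S100P lost its call with thinned gates (adjusted p = 0.0972). PADI4 and S100P lost their call in reaction 1 by itself. These 2 genes had 31 and 5 UMIs in all type 2 dendritic cells and may have passed the filter through monocytes alone.

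S100A8, S100A9, S100A12, FCN1, VCAN and MCEMP1 were lower at the highest C1Q level than without C1Q, by unequal amounts and not at every step. Monocytes, low-C1Q cells and macrophages were placed in 7 bins of C1Q UMIs per 10000. The bins under 3 per 10000 held monocytes alone, which were gated on monocyte markers. Bins from 3 upward needed no such marker, and the part of this selection in the fall was not tested. VCAN stood at 3567 CPM in reaction 1 and 3904 CPM in reaction 2 among monocytes with no C1Q UMI. It stood at 3806 and 4005 CPM in the next bin, and at 99.5 (95% interval 85.1 to 116) and 95.2 (77.6 to 116) CPM among cells with 100 or more. FCN1 went from 735 and 785 CPM to 12.2 and 28.9 CPM over the same bins. S100A12 went from 237 and 233 CPM to 2.91 and 1.87 CPM. In NK cells, which should lack these genes, VCAN ran over 14 mice from 10.6 to 360 CPM. FCN1 ran there from 2.89 to 60.5 CPM and S100A12 from 0 to 7.35 CPM. The last-bin levels of VCAN, FCN1 and S100A12 lie within those ranges, and the part of free RNA from other cells in them was not tested. Intervals are exact Poisson intervals of the summed counts and cover counting error only.

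S100A9 had its minimum in the middle of the axis. It stood at 7932 and 7842 CPM without C1Q, at 1810 and 1427 CPM between 25 and 50 C1Q UMIs per 10000, and at 3055 (2973 to 3139) and 3359 (3250 to 3471) CPM from 100 upward. S100A8 in the same bins stood at 4336 and 4106 CPM, 454 and 218 CPM, and 183 and 315 CPM. In all 11 mice with at least 10 cells in both bins, S100A9 was higher in the highest bin (1785 to 4978 CPM) than between 25 and 50 (1238 to 2317 CPM). S100A8 was lower there in 9 of the 11 mice and VCAN in 11 of 11. The S100A9 level in the highest bin is far above its level in T cells of the same reactions, 46.2 and 29.5 CPM. The contrast of S100A9 with S100A8 between these bins was chosen after its values were seen and is given as a description.

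**Figure D2:**
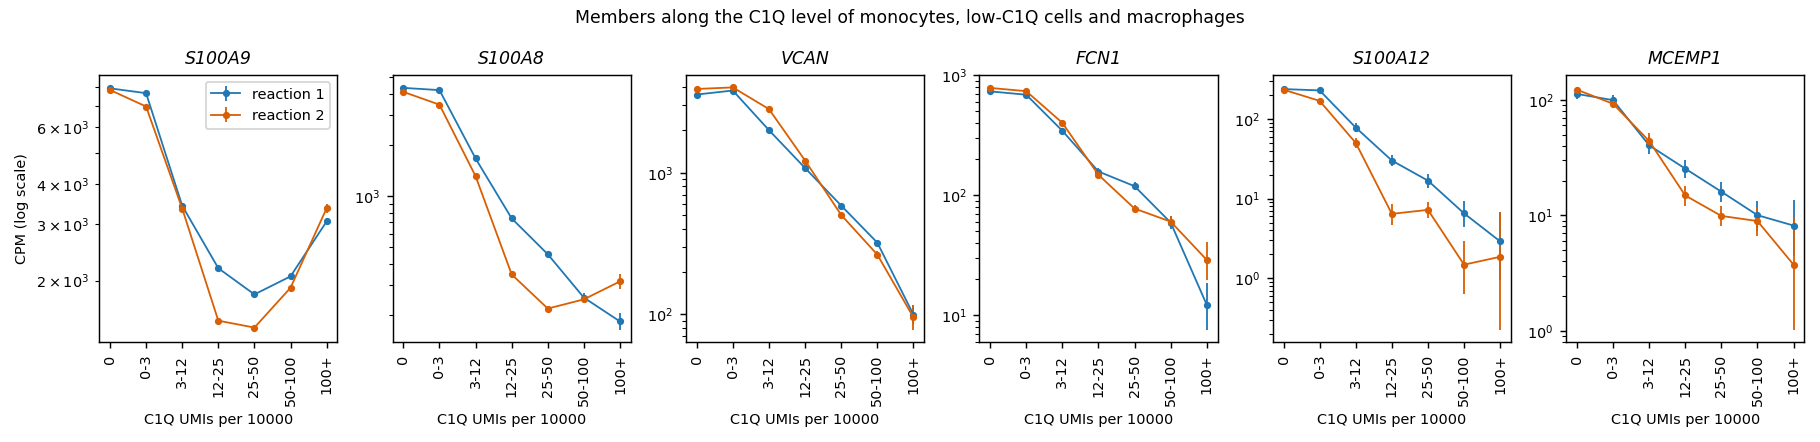
CPM on a log scale is plotted against 7 bins of C1Q UMIs per 10000 for 6 members, with 1 line per reaction and exact Poisson 95% bars. The bins under 3 hold monocytes alone. S100A9 reaches its lowest point between 25 and 50 and stands at 3055 and 3359 CPM in the last bin, whereas VCAN ends at 99.5 and 95.2 CPM.

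The balance of the calprotectin partners differed between gates. The ratio of S100A9 UMIs to S100A8 UMIs in monocytes ran from 1.66 to 2.16 over 14 mice, with a median of 1.92. In macrophages it ran from 4.12 to 9.81, with a median of 5.04, so every mouse had a higher ratio in macrophages than any mouse had in monocytes. LYVE1 or FOLR2 macrophages had a median ratio of 12.4 (4.38 to 23.9) and GLUT1 macrophages of 9.28 (3.24 to 17.3), while type 2 dendritic cells stood at 3.14 (2.26 to 3.83) and MT1G macrophages at 3.39 (1.97 to 6). In NK and T cells, which should lack both genes, the medians were 2.74 and 3.34, beside 2.50 in all myeloid cells summed. The S100A8 medians of LYVE1 or FOLR2 and GLUT1 macrophages lie within the S100A8 range of NK cells, and the part of free RNA in these ratios was not tested. A ratio of UMIs depends on how well each transcript is captured, and is compared here between gates only.

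**Figure D3:**
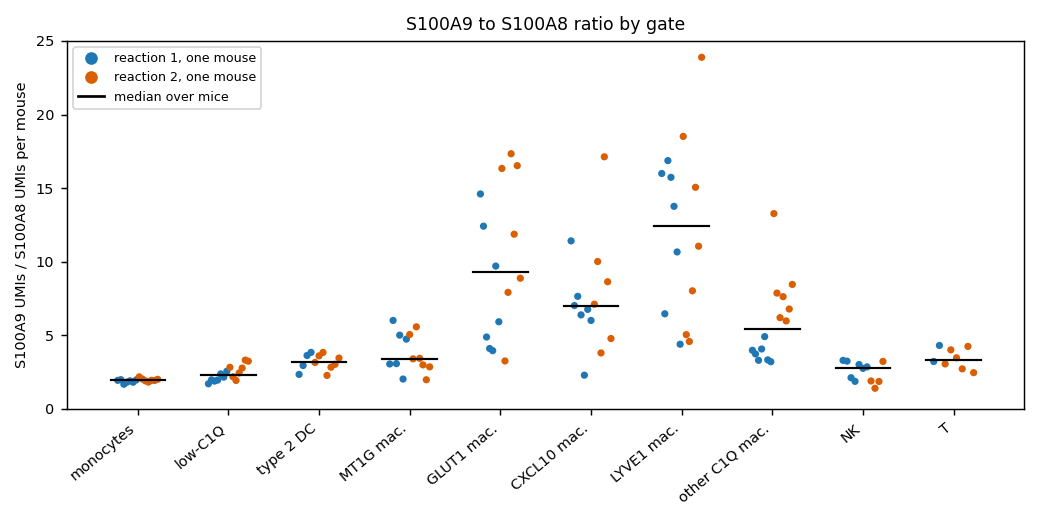
The vertical axis gives S100A9 UMIs divided by S100A8 UMIs, 1 point per mouse with at least 10 S100A8 UMIs in the gate and a line at the median, coloured by reaction. Monocytes form the tightest group, from 1.66 to 2.16, and LYVE1 or FOLR2 macrophages reach 23.9.

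Macrophage states differed in how much of the member genes they held. Each state was compared with the mean of the other states within mice, without the IL1A or CCL20 state, which too few mice held. In MT1G macrophages, marked by zinc- and copper-binding metallothioneins, 5 of 8 members tested were higher, against 3.34% of all genes. The log2 differences were 1.56 for S100A8 (SE 0.21, adjusted p = 1.86e-08), 1.04 for FCN1 (SE 0.24), 0.94 for VCAN (SE 0.17), 0.85 for MCEMP1 (SE 0.26, adjusted p = 0.0322) and 0.50 for S100A9 (SE 0.10). S100A8 ran from 279 to 2091 CPM over the 13 mice with such cells, overlapping the 111 to 830 CPM of other C1Q macrophages, and stood above them in 10 of 13 mice. MT1G macrophages had medians of 39.4 and 36.2 C1Q UMIs per 10000 in reactions 1 and 2, against 30.6 and 29.8 in other C1Q macrophages, 32.2 and 31.1 in GLUT1, 50.9 and 42.2 in CXCL10 and 62.8 and 45.8 in LYVE1 or FOLR2 macrophages, and the part of the C1Q level in these differences was not tested. MCEMP1 was above other C1Q macrophages in 6 and below in 7 of 13 mice, with medians of 14.03 and 14.23 CPM. S100A12 differed by 0.60 (SE 0.50), PADI4 by 0.34 (SE 0.60) and S100P by -0.088 (SE 2.47), none of them called. In reaction 1 by itself 1 of the 5 members, S100A8, kept its call, and in reaction 2 by itself 5 members were called.

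GLUT1 macrophages, whose markers belong to the response to low oxygen, had 2 of 8 members higher, against 16.4% of all genes. With 8 members this count is near that share and is not read as a result about the members. VCAN ran from 451 to 2044 CPM over 14 mice (median 843) and differed by 0.93 (SE 0.17, adjusted p = 2.05e-06). It was higher than in other C1Q macrophages in 9 of 14 mice, and its call was lost in reaction 1 by itself, with a log2 difference of 0.46. The other call was S100P, at 2.20 (SE 0.72, adjusted p = 0.0128), which rested on 9 UMIs in 3 of 14 mice. S100A9 differed by -0.0035 (SE 0.10) and FCN1 by -0.77 (SE 0.32, adjusted p = 0.0577). FCN1 was called lower with DESeq2 (-0.67, adjusted p = 0.0399) and with all genes tested (-0.89). It was also called lower with the gate minimum raised by 1 UMI (-1.09) and above 1000 genes (-0.80). The differences of S100A8 at -0.31 (SE 0.25), S100A12 at -0.45 (SE 0.68), PADI4 at 1.22 (SE 0.85) and MCEMP1 at 0.68 (SE 0.31) were not called, although S100A8 passed with all genes tested (-0.41) and MCEMP1 with DESeq2 (0.71).

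CXCL10 macrophages, which carry interferon-induced chemokines, had 2 of 8 members lower, against 6.96% of all genes. VCAN differed by -1.32 (SE 0.19, adjusted p = 1.35e-08), ran from 41.7 to 805 CPM and was below other C1Q macrophages in 14 of 14 mice. MCEMP1 differed by -0.92 (SE 0.28, adjusted p = 0.0114) and lost its call in reaction 1 by itself. S100A8 and S100A9 differed by -0.45 (SE 0.23, adjusted p = 0.191) and -0.21 (SE 0.10, adjusted p = 0.162), and both passed with all genes tested (-0.41 and -0.17). S100A12 at -0.68 (SE 0.49), S100P at -1.47 (SE 0.84), PADI4 at -2.15 (SE 0.95) and FCN1 at 0.076 (SE 0.23) were not called. These cells had a median of 50.9 C1Q UMIs per 10000 in reaction 1 and 42.2 in reaction 2, and the part of the C1Q level in the VCAN difference was not tested.

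Most monocytes held UMIs of the abundant members. S100A9 was detected in 97.01% of monocytes in reaction 1 and 98.5% in reaction 2, at median depths of 7379 and 11355 UMIs, and S100A8 in 88.5% and 93.1%. T cells, which should lack these genes, had S100A9 UMIs in 24.9% and 20.6% of cells at median depths of 5479 and 6888 UMIs, and NK cells in 44.9% and 19.5% at 2659 and 7581 UMIs. FCN1 was detected in 79.5% and 87.4% of monocytes, against 2.22% and 2.59% of T cells, and VCAN in 89.5% and 92.6%, against 9.56% and 9.27%.

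S100A12 had a UMI in 39.2% (95% exact binomial interval 35.8 to 42.7) of monocytes in reaction 1 and 50.7% (48.0 to 53.4) in reaction 2. After every cell was thinned to 2000 UMIs, which left out 102 and 7 monocytes below that depth, the shares were 21.3% and 22.5%. A monocyte without a UMI may still express the gene, and the unthinned share was 0.341% and 0.757% in T cells and 1.93% and 0.826% in NK cells, at the depths given above. MCEMP1 went from 33.3% and 43.5% to 15.8% and 16.01% on thinning, and PADI4 from 8.22% and 10.8% to 3.57% and 3.78%. At equal depth the reactions differed by less than 2 percentage points in each of these 3 genes.

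The less abundant members were detected more often in monocytes with S100A12. Among thinned monocytes with an S100A12 UMI, PADI4 was detected in 9.4% in reaction 1 and 9.2% in reaction 2, against 2.0% and 2.2% of those without one. S100P was detected in 8.1% and 10.9% against 1.6% and 1.7%, and HP in 6.7% and 4.9% against 0.54% and 0.48%. MCEMP1 was at 25.5% and 25% against 13.2% and 13.4%. Cells of 1 reaction share their library, so these shares are a description, and the counts behind them are small, with 10 and 15 cells holding both S100A12 and HP.

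Within monocytes the alarmins were spread unevenly over cells. The median monocyte held 22.5 S100A8 UMIs per 10000 in reaction 1 and 23.3 in reaction 2, while the 95th percentile was 185 and 138. The tenth of monocytes with the most S100A8 UMIs held 49.7% and 38.2% of that gene's UMIs, and for FCN1 the share was 40.5% and 31.5%. For these shares cells were ranked by UMIs not scaled to depth, and the part of depth in them was not tested.

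VNN2 was low in every gate. Its level was 7.08 CPM (5.22 to 9.38) in monocytes of reaction 1 and 7.25 CPM (5.99 to 8.68) in reaction 2, against 3.04 (1.99 to 4.45) and 4.44 (3.13 to 6.12) CPM in NK cells and 2.84 (1.42 to 5.08) and 2.88 (2.02 to 3.99) CPM in T cells. S100A9 by comparison was 46.2 and 29.5 CPM in T cells and 7799 and 7450 CPM in monocytes of the 2 reactions. In B cells of reaction 2 VNN2 stood at 10.8 CPM (4.68 to 21.4) on 8 UMIs. The free-RNA level of a gene so low cannot be told apart from its expression in these cells.

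Mast cells and B cells of reaction 2 held UMIs of PADI4 and VCAN. PADI4 stood at 51.2 CPM (30.3 to 80.9) in mast cells of reaction 2 on 18 UMIs, above the 24.3 CPM of its monocytes, and at 8.40 CPM (1.02 to 30.4) in reaction 1. In reaction 2 it was found in each of the 3 mice with at least 10 mast cells, at 37.4, 54.2 and 88.7 CPM. VCAN stood at 142 CPM in B cells of reaction 2, and 78 of its 105 UMIs there came from 18 cells of 1 maraviroc mouse.

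Defining neutrophil genes were near 0. In monocytes CEACAM8 had 0 UMIs in reaction 1, which allows up to 3 UMIs in 6783804, and 1 in reaction 2. ELANE had 0 and 4 UMIs, LTF 1 and 4, CXCR2 3 and 8, FCGR3B 11 and 31, CAMP 10 and 18 and MPO 16 and 43. All 7 markers summed to 6.04 and 6.75 CPM, against 4272 and 3815 CPM of S100A8. Of 18 neutrophil granule and surface genes, only MMP9, a gelatinase that macrophages also make, passed the filter on low counts, and it was lower in monocytes than in macrophages by -2.92 on the log2 scale (SE 0.22).

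Relatives and partners of the members differed in both directions between monocytes and macrophages. Over all 9713 genes tested 27.3% were higher in monocytes, and the share lower is not given. The counts below are therefore not read as results about these lists. Of 12 other S100 genes, 8 were tested: 5 were higher in monocytes than in macrophages and 2 were lower. S100A4 differed by 1.21 and S100Z by 1.21, while S100B differed by -2.22 and S100A13 by -1.12. Of 10 receptors and partners, 9 were tested, 4 higher and 3 lower. CD36, a scavenger receptor, differed by 1.90 and CD44, the hyaluronan receptor, by 1.18, whereas CD14, which presents lipopolysaccharide to TLR4, differed by -1.86 and CD163, the receptor for haptoglobin bound to hemoglobin, by -1.73. PADI2 was the tested relative of PADI4, VNN2, FCN1 and HP, out of 8, and was higher by 1.10 (SE 0.34, adjusted p = 0.00346). Of 17 other monocyte genes, 16 were tested and 13 were higher and 3 lower, with SERPINB2 at 5.01 the highest.

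Against type 2 dendritic cells, 1 of 8 other S100 genes was higher in monocytes and 5 were lower, with S100B at -3.35 and S100A10 at -1.16 the lowest, S100Z at 0.59, and S100A16 at 1.40 without a call (SE 0.84, adjusted p = 0.246). Of the receptors and partners 5 of 9 were higher and none lower, with CR1 at 1.74 and CD163 at 1.31. Over all genes tested 11.1% were higher in monocytes, and the share lower is not given. These counts too are not read as results about the lists.

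The genes whose profile over 30 points of gate and reaction was nearest to the summed members were SERPINA1 (Pearson r = 0.969), IL1B (0.966), LILRA5 (0.966), FPR1 (0.959) and LILRB4 (0.955). LILRA5 is among the markers that set the monocyte gate, and points of 1 reaction share library and depth. The points include T, NK, B and mast cells, and the part of the contrast between myeloid and other cells in r was not tested. S100A9, the most abundant member, was by itself nearest to SERPINA1 (0.984) and IL1B (0.975). SERPINA1 stood at 577 and 545 CPM in monocytes and at 275 and 235 CPM in other C1Q macrophages. By single member, S100A12 was nearest to MCEMP1 (0.894), FCN1 to FPR1 (0.953), and VCAN to VCAN-AS1 (0.957).

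No member was called between maraviroc and untreated mice in monocytes, macrophages, type 2 dendritic cells or all myeloid cells, the 4 sets tested for treatment. In monocytes S100A8 ran over 4 untreated mice of reaction 1 from 2735 to 4801 CPM and over the 3 maraviroc mice from 3039 to 5893 CPM, and in reaction 2 from 3558 to 4130 CPM in 3 untreated and from 3317 to 5042 CPM in 4 maraviroc mice. The treatments overlapped in both reactions. VCAN in reaction 2 ran from 3565 to 3975 CPM in untreated and from 3303 to 5536 CPM in maraviroc mice, which also overlapped.

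In the fit with reaction as a term, 0 of 9516 genes and 0 of 10 members were called in monocytes, where the background was 0%, and 354 genes had an unadjusted p under 0.05. DESeq2 called 0 genes there, with 393 at an unadjusted p under 0.05. The log2 difference, maraviroc minus untreated, was 0.12 for S100A8 (SE 0.14), 0.11 for S100A9 (SE 0.11), 0.20 for S100A12 (SE 0.21), 0.13 for VCAN (SE 0.12) and 0.10 for FCN1 (SE 0.11). MCEMP1 differed by -0.04 (SE 0.16) and S100P by -0.03 (SE 0.41). The widest standard errors were those of the sparsest genes, HP at 0.44 (SE 0.52), VNN2 at 0.41 (SE 0.41) and PADI4 at -0.39 (SE 0.28). The interaction of treatment and reaction in monocytes had no member at an unadjusted p under 0.05, against 7.89% of genes.

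**Figure D4:**
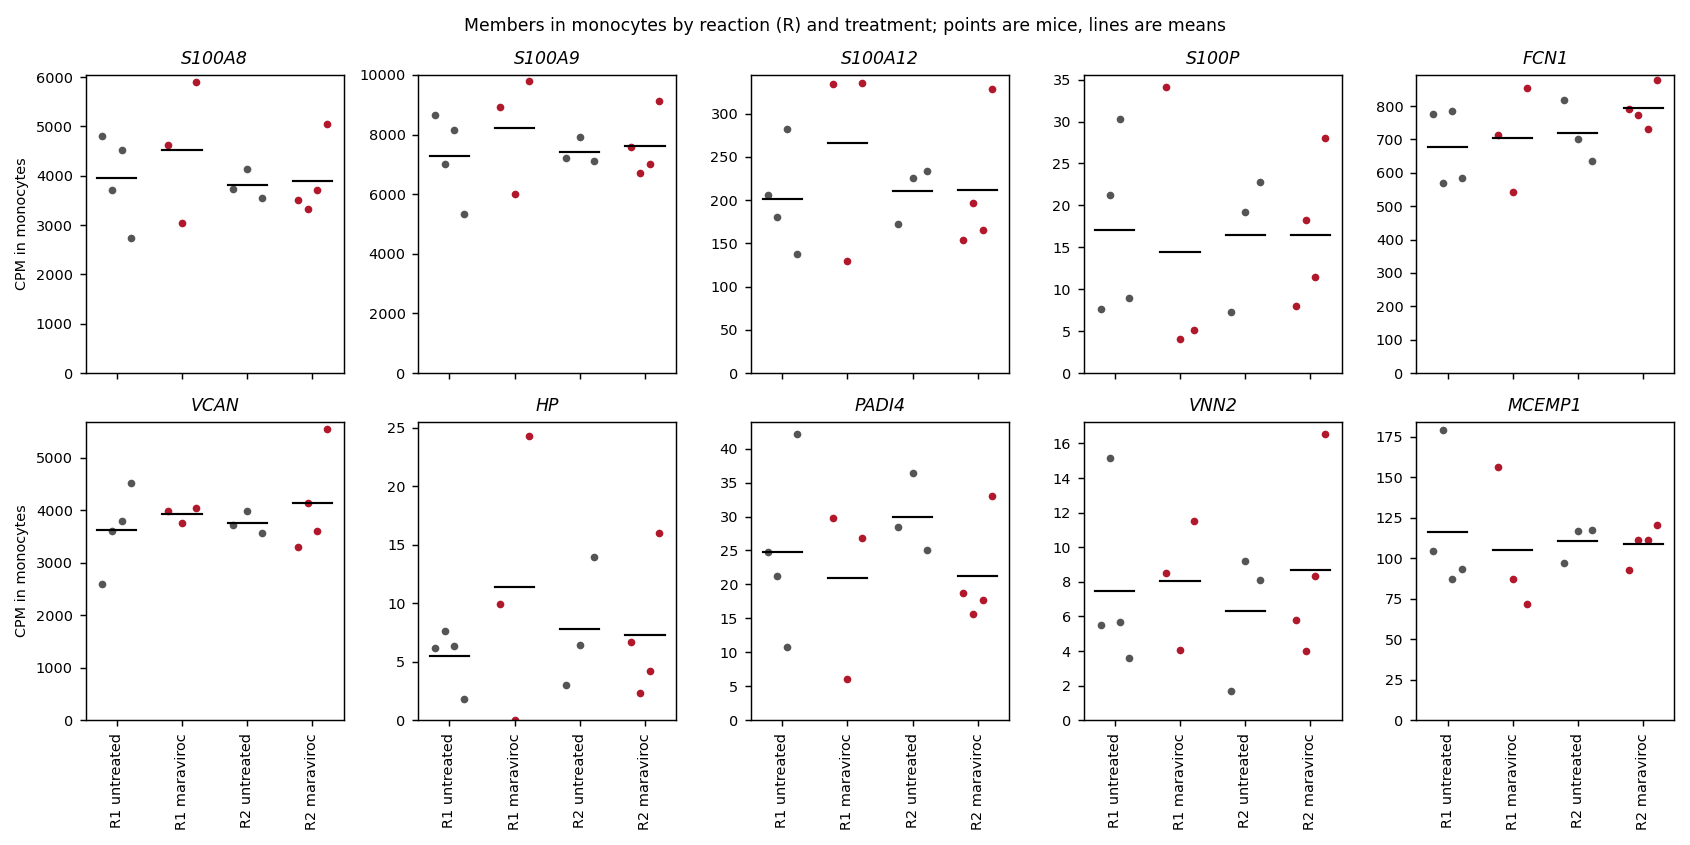
Each panel plots 1 member as CPM in monocytes on a linear axis from 0, with 1 point per mouse in 4 groups of reaction and treatment and a line at the mean. Untreated and maraviroc mice overlap for S100A8 in both reactions, and VCAN has 1 maraviroc mouse of reaction 2 at 5536 CPM.

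Macrophages and type 2 dendritic cells gave the same count. In macrophages 0 of 6 members tested and 0% of 11353 genes were called, with log2 differences of -0.18 for MCEMP1, -0.12 for S100A8, -0.0092 for VCAN, 0.0011 for S100A12, 0.061 for S100A9 and 0.15 for FCN1. In type 2 dendritic cells of 6 untreated and 5 maraviroc mice 0 of 6 members and 0% of 6827 genes were called. Only 1 of these maraviroc mice, with 12 such cells, was of reaction 1, so the differences rest mostly on reaction 2. S100A8 differed there by 0.47 (SE 0.21, unadjusted p = 0.038 by edgeR), S100A9 by 0.34 (SE 0.15, unadjusted p = 0.0425 by edgeR) and MCEMP1 by -0.70 (SE 0.28, unadjusted p = 0.0233 by edgeR), against 3.76% of genes at an unadjusted p under 0.05. None passed adjustment, and S100A12 at 0.25 (SE 0.43), FCN1 at 0.26 (SE 0.24) and VCAN at 0.12 (SE 0.20) were not called either. S100A8 turned to -0.14 when the gate minimum was raised by 1 UMI, which left 7 mice.

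The share of monocytes among myeloid cells went opposite ways in the reactions. In reaction 1 it was 11.9% to 18.7% in 4 untreated mice and 9.21% to 10.7% in 3 maraviroc mice, without overlap. In reaction 2 it was 20.5% to 31.6% in 3 untreated and 27.9% to 52.3% in 4 maraviroc mice, with overlap. Over both, maraviroc minus untreated was 2.57 percentage points (two-sided exact permutation within reactions, 1225 regroupings, p = 0.612). By reaction the difference was -5.58 points (exact permutation, p = 0.0571) and 10.7 points (exact permutation, p = 0.229), where 35 regroupings allow no p under 0.0286. The change differed between the reactions by 16.3 points (exact permutation within reactions, p = 0.0196). Treatment labels were permuted within reactions, so this p is set against no effect in either reaction and does not test an equal effect in both. The SD of the share ran from 0.77 points in maraviroc mice of reaction 1 to 10.9 points in those of reaction 2.

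Members summed over all myeloid cells are given beside that share. FCN1 ran in reaction 1 from 137 to 366 CPM in untreated and from 184 to 227 CPM in maraviroc mice, and in reaction 2 from 163 to 384 CPM and from 346 to 527 CPM. VCAN ran in reaction 1 from 934 to 1942 CPM in untreated and from 1070 to 1161 CPM in maraviroc mice, and in reaction 2 from 1051 to 1761 CPM and from 1608 to 2458 CPM. In such a sum fewer monocytes and less RNA per monocyte cannot be told apart. The fit called 0 of 10 members and 0 of 13441 genes, with 501 genes at an unadjusted p under 0.05, while DESeq2 called 5 genes, none a member. The log2 differences were -0.28 for PADI4, 0.037 for FCN1, 0.043 for VCAN, 0.044 for MCEMP1, 0.067 for S100A9, 0.073 for S100A8, 0.10 for S100P, 0.15 for S100A12, 0.20 for VNN2 and 0.22 for HP.

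The interaction of treatment and reaction over all myeloid cells had 4 of 10 members at an unadjusted p under 0.05, against 12.3% of genes: FCN1 at 1.27 (SE 0.45), VCAN at 0.96 (SE 0.34), MCEMP1 at 0.74 (SE 0.27) and S100A9 at 0.64 (SE 0.29). Their lowest adjusted p by edgeR was 0.309, so none was called. In macrophages 3 of 6 members (S100A12, FCN1 and VCAN) had such a p, against 8.41% of genes, and in type 2 dendritic cells 3 of 7 (S100A12, FCN1 and VCAN), against 6.37%.

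**Figure D5:**
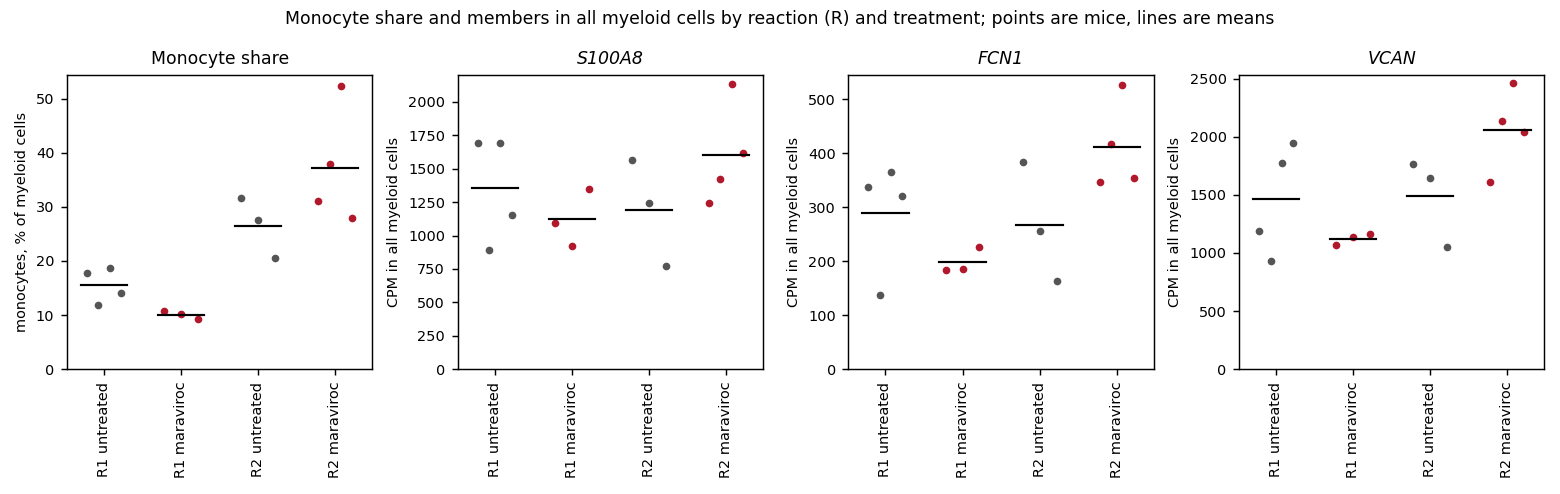
The first panel plots monocytes as a percentage of myeloid cells and the others plot S100A8, FCN1 and VCAN as CPM in all myeloid cells, 1 point per mouse in 4 groups of reaction and treatment with a line at the mean. In reaction 1 the 3 maraviroc mice lie at 9.21% to 10.7%, below all untreated mice, and in reaction 2 the maraviroc mice reach 52.3%.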

How the data were processed

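Human CD45+ cells of 14 mice were profiled in 2 reactions of Chromium 3' v3.1 RNA-seq. The authors deposited raw UMI counts per barcode, without normalization, made with Cell Ranger 9.0.1 on GRCh38. Treatment was read from the hashtag names in the feature lists, because the sample labels do not give it. Hashtags were called with HTODemux (Seurat 5.3.0, quantile 0.99), and singlets with 601 to 6000 genes and under 12.5% mitochondrial UMIs were kept. Gates required at least 3 myeloid UMIs and 10 per 10000, with other lineages at no more than 0.5 times that. Gate thresholds were set on marker UMIs after the files were opened. At least 2 marker UMIs defined monocytes and dendritic cells, and at least 3 the macrophage states. UMIs were summed per mouse and gate with at least 10 cells and tested with edgeR 4.0.16 (TMM, filterByExpr, quasi-likelihood, Benjamini-Hochberg over all genes tested, called under 0.05), with reaction as a term for treatment and mouse as a block between gates. SEs are the log2 difference over the square root of F. DESeq2 1.42.0 was an alternative, and fits were tested on simulated data. Mice are the replicates. The 10 members and all lists were chosen with earlier results of these data known, so no list was tested as a set; every member tested is named in each comparison of gates or treatments, and in the interactions those with an unadjusted p under 0.05, and of each list at most the 2 highest and 2 lowest genes, of which 1 is not reported here.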

Additional observations from a re-analysis of the deposited data

Results flagged for a closer look

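Of 82 groups of 4 to 10 mice examined for a single mouse far from the others, 10 were flagged, where chance flags about 1 in 20. In monocytes, VCAN stood at 5536 CPM in 1 maraviroc mouse of reaction 2, against 4139 CPM in the next, and MCEMP1 at 179 CPM in 1 untreated mouse of reaction 1, against 118 CPM. In macrophages, FCN1 stood at 231 CPM in 1 maraviroc mouse of reaction 2, against 111 CPM.

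The other 7 were in type 2 dendritic cells, where a mouse has few cells. All these cells together held 1 UMI of HP, 4 of VNN2 and 5 of S100P, so such flags can rest on single molecules. S100A12 stood at 166 CPM in 1 maraviroc mouse of reaction 1, against 41.3 CPM in the next, and HP stood at 11.9 CPM in the same mouse, with the others at 0. VCAN stood at 1030 CPM in 1 untreated mouse of reaction 2, below the next at 1712 CPM, and VNN2 stood at 6.36 CPM in that mouse, against 2.19 CPM. S100P stood at 8.42 CPM in 1 untreated mouse, against 1.21 CPM. PADI4 at 8.67 CPM and VNN2 at 1.44 CPM came from 1 maraviroc mouse of reaction 2, with the other maraviroc mice at 0 for both.

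The change of the monocyte share under maraviroc differed between the reactions by 16.3 percentage points (two-sided exact permutation within reactions, p = 0.0196). That p is set against no effect of treatment in either reaction and does not test an equal change in both. The reactions also differed in depth and in the share of doublets, and the part of these in the difference was not tested.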

How the results depend on the processing

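Counts of members called were refitted without a mouse only for treatment. They stayed at 0 in all 53 such settings, which cannot show how stable a count above 0 is. Maraviroc minus untreated in the monocyte share was 2.57 percentage points. It was 0.91 with thinned gates, 2.72 with the gate minimum raised by 1 UMI and 5.29 with labels permuted over both reactions. The p by exact permutation ran from 0.457 to 0.802. Of 67 other values of counts and shares, 60 were labelled the same. The 7 that moved were counts that changed by more than 1.5 times. Among GLUT1 macrophages 4 members were called with all genes tested or with DESeq2 and 0 in reaction 1 by itself, against 2. The calls added with all genes were lower, S100A8 at -0.41 and FCN1 at -0.89. Those added with DESeq2 were FCN1, lower at -0.67, and MCEMP1, higher at 0.71. Among MT1G macrophages 1 was called in reaction 1 by itself, against 5. Among CXCL10 macrophages 4 were called with all genes tested and 1 with thinned gates or in reaction 1 by itself, against 2. The cause was not tested. The share of all genes called in these settings is not given, so these counts are not read as results about the members.

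Log2 differences of single members turned sign in 40 of 512 other settings, none of them among members called. In monocytes, maraviroc minus untreated turned for S100P (0.066 in reaction 2, 0.034 above 1000 genes), HP (-0.043 in reaction 2) and MCEMP1 (0.020 in reaction 2, 0.034 with thinned gates). Over all myeloid cells in reaction 1 by itself it was -0.32 for S100A8, -0.25 for S100A9, -0.25 for S100A12, -0.36 for S100P, -0.60 for FCN1, -0.43 for VCAN, -0.35 for VNN2 and -0.34 for MCEMP1. In type 2 dendritic cells it was -0.14 for S100A8, -0.53 for S100A12 and -0.067 for VCAN with the gate minimum raised by 1 UMI, and for S100A12 -0.063 without the reaction term and -0.47 in reaction 2. In macrophages S100A8 was 0.24, VCAN 0.50 and MCEMP1 0.15 in reaction 2, S100A9 -0.22 and FCN1 -0.68 in reaction 1, and S100A9 -0.012 and VCAN 0.025 without the reaction term. S100A12 there was -0.39 without the reaction term, -0.0092 with all genes, -0.77 in reaction 1, -0.062 with the minimum raised, -0.072 with thinned gates and -0.018 above 1000 genes. Between macrophage states, S100A9 in GLUT1 cells was 0.023 by DESeq2 and PADI4 -0.36 with the minimum raised. In MT1G cells S100P was 0.67 with the minimum raised, 2.14 with thinned gates, 0.31 in reaction 2 and 0.19 by DESeq2, and PADI4 was -0.014 with thinned gates and -2.70 in reaction 1. FCN1 in CXCL10 cells was -0.091 in reaction 1.

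Leaving out each mouse in turn gave, for maraviroc minus untreated in monocytes, -0.32 to 0.16 for S100P, -0.020 to 0.86 for HP and -0.18 to 0.057 for MCEMP1. Over all myeloid cells it gave -0.087 to 0.18 for S100A8, -0.064 to 0.15 for S100A9, -0.064 to 0.35 for S100P, -0.17 to 0.15 for FCN1, -0.11 to 0.16 for VCAN, -0.10 to 0.40 for HP, -0.020 to 0.34 for VNN2 and -0.045 to 0.14 for MCEMP1. In type 2 dendritic cells it gave -0.47 to 0.49 for S100A12 and -0.070 to 0.38 for VCAN, and in macrophages -0.35 to 0.11 for S100A8, -0.080 to 0.17 for S100A9, -0.32 to 0.28 for S100A12, -0.12 to 0.33 for FCN1 and -0.18 to 0.18 for VCAN. Treatment in type 2 dendritic cells of reaction 1 by itself or with thinned gates, and GLUT1 macrophages with thinned gates, could not be fitted, since too few mice held 10 cells. HP, VNN2, S100P and PADI4 are limited by their UMIs.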
